A study of Mus musculus with 2 samples.

Results

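CXC chemokines are small secreted proteins that steer white blood cells through G protein-coupled receptors, and the genes described here were 8 of these ligands and 2 of their receptors, *Cxcl1*, *Cxcl2*, *Cxcl3*, *Cxcl5*, *Cxcl10*, *Cxcl12*, *Cxcl14*, *Cxcl16*, *Cxcr2* and *Cxcr4*. They were chosen by gene symbol and make up 10 of the 32287 features counted. Cells came from hind limb muscle of male mice aged 10 to 16 weeks, 7 days post injury (7 dpi). Both peroneal nerves had been crushed, and the cells were profiled by droplet-based scRNA-Seq in 2 libraries. In the SPP1-nAb library the tibialis anterior (TA) muscle had been injected with 2 μg of an antibody that neutralizes SPP1 (osteopontin) in 10 μL, and in the IgG library with the same amount of goat anti-mouse IgG. Injections began at injury and were repeated every 2 days. The sample labels name C57BL/6J mice, TA and gastrocnemius muscle and GFP-positive cells, whereas the study's methods name *S100GFP*-tg mice, whose GFP is driven by the *S100B* promoter, and sorting of live GFP+ and GFP- cells in a ratio that is not given. The study's results name TA muscle for this experiment. Mice were pooled, with no number named, and there was 1 library per condition. No difference between the libraries therefore has a replicate check, no test was made, and all intervals are 95% intervals that cover counting error only.

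CXCR2 is the receptor by which neutrophils leave the blood toward CXCL1, CXCL2, CXCL3 and CXCL5, which macrophages and stromal cells release in inflamed tissue and which neutrophils also make themselves. CXCR4 binds CXCL12, a stromal and endothelial ligand that holds neutrophils and progenitors in the bone marrow and guides many other cells. CXCL10 is induced by interferon and attracts activated T and NK cells through CXCR3, CXCL16 is a membrane-bound ligand of CXCR6 that also acts as a scavenger receptor for oxidized lipid, and CXCL14 is made by fibroblasts and epithelia.

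The genes of the CXCR2 ligands share a cluster. On the plus strand of chromosome 5 of GRCm39, *Cxcl5* spans 90907186 to 90909483, *Cxcl3* 90933962 to 90937459, *Cxcl1* 91039094 to 91040974 and *Cxcl2* 91051730 to 91053797, a stretch of 146612 bases from the start of the first to the end of the last. *Cxcl10* lies 1440699 bases further along on the minus strand, from 92494497 to 92496748. The other members lie apart from this cluster, with *Cxcl12* on chromosome 6 (117144945 to 117158328), *Cxcl14* on chromosome 13 (56436352 to 56444603), *Cxcl16* on chromosome 11 (70344517 to 70352620) and both receptors on chromosome 1, *Cxcr2* from 74193150 to 74200405 and *Cxcr4* from 128515936 to 128520044. The annotation lists all 10 as protein coding. The promoters of *Cxcl1*, *Cxcl2*, *Cxcl3* and *Cxcl10* are printed because these genes lie on 1 chromosome but had different levels in the cell classes described below. Each line gives the 250 bases before the start of the gene from RefSeq (GRCm38.p6, whose coordinates differ from those of GRCm39), 5′ to 3′ on the strand of the gene, and capitals mark matches to letters known to bind NF-κB and, in *Cxcl10*, also to letters known to bind interferon-activated factors.
*Cxcl1*, chr5:90890995-90891244, plus strand: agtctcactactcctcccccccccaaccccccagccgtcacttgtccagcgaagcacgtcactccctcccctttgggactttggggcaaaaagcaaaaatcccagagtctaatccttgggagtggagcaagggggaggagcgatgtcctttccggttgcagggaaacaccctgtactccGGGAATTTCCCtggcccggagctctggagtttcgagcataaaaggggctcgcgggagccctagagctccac
*Cxcl2*, chr5:90903649-90903898, plus strand: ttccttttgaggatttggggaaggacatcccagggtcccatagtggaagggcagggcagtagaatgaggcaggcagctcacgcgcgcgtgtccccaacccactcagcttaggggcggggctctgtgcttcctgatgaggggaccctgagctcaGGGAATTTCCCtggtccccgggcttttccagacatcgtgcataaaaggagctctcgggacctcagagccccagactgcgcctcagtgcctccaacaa
*Cxcl3*, chr5:90785851-90786100, plus strand: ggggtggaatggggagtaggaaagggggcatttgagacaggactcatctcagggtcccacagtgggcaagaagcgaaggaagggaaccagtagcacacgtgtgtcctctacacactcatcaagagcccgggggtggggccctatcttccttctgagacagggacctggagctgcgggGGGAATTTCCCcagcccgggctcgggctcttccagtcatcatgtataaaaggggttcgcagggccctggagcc
*Cxcl10*, chr5:92348890-92349139, minus strand: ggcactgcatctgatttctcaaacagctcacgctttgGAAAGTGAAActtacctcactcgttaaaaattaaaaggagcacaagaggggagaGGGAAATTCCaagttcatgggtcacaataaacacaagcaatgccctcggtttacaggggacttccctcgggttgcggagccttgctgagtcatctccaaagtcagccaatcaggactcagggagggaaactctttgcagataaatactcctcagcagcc

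The κB letters GGGANNTTCC, searched on both strands, occurred in 397 of 32851 promoters of this length (1.21%). *Cxcl1*, *Cxcl2* and *Cxcl3* each held the match GGGAATTTCC, which began 71, 97 and 73 bases before the gene, and an overlapping match on the other strand that began 1 base nearer to it. *Cxcl10* held GGGAAATTCC at 159 bases. It also held GAAAGTGAAA at 213 bases, a match on the other strand to the interferon-response letters TTTCNNTTTC, which 978 promoters (2.98%) had. *Cxcl14* held 1 match to the interferon-response letters, at 172 bases, and no κB match. Neither set of letters occurred in the 250 bases before *Cxcl12*, *Cxcr2* or *Cxcr4*, and 8 of the 10 genes were matched to a promoter. The AP-1 letters TGANTCA were also searched but not capitalized. They occurred in *Cxcl10* at 74 bases and in 6.75% of promoters. Other forms of κB letters were not searched, so lower case does not mean that such letters are absent. Matches of this kind describe letters and are not shown to be sites.

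After filtering, 21047 IgG cells with 81102387 UMIs (median 3618) and 22282 SPP1-nAb cells with 106783524 UMIs (median 4551) were kept, and 129 kept barcodes occurred in both libraries. Cells were clustered with all 10 genes and *Spp1* left out of the variable genes, and 17 classes were named from marker genes. They are called "-like" because the names were rebuilt here and can differ from those of the study. All 7 neutrophil markers were raised in the neutrophil-like cluster. *S100a8*, for example, reached 19501 and 23920.2 UMIs scaled to a class total of 1e+06 (CPM, with IgG given before SPP1-nAb throughout), against 10.3 and 31.1 CPM in all other cells. Free RNA, estimated from collagen genes in immune cells, made up 2.29% and 4.06% of the UMIs of neutrophil-like cells and between 0.902% and 2.33% of those of the phagocyte classes. The estimate divides by the part of collagen genes over all kept cells of the library. It therefore also depends on the share of mesenchymal-like cells (11.7% and 4.38%), and its difference between the libraries need not be one of free RNA. Subtracting this estimate moved the log2 ratio (SPP1-nAb over IgG) of *Cxcr2* in neutrophil-like cells from 0.12 to 0.14. That of the summed CXCR2 ligands described below stayed at 0.39 over all kept cells. The latter could hardly change, because the profile subtracted was the library's own over all kept cells. It is therefore no check on free RNA.

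Over all kept cells, 6 of the 10 genes differed by more than 1.5-fold between the libraries. *Cxcl3*, *Cxcl5*, *Cxcr2* and *Cxcr4* were higher with SPP1-nAb, as were 2.73% of the 15119 genes with at least 100 UMIs, and *Cxcl12* and *Cxcl14* were lower, as were 17.4%. The median log2 ratio (SPP1-nAb over IgG, given with its interval in parentheses or after a comma) of the 10 genes was 0.36. That of all genes was -0.11, and scaling by the median ratio instead of total UMIs would raise each log2 ratio over all kept cells by 0.11. *Cxcr2* showed the widest difference among the higher genes, with 7.32 (6.75–7.94) and 14.7 (13.97–15.4) CPM and a log2 ratio of 1.00 (0.87 to 1.14). *Cxcr4* stood at 137 and 224 CPM (0.70, 0.67 to 0.74), and *Cxcl3* stood at 120.0 and 184 CPM (0.62, 0.58 to 0.65). The stromal ligands went the other way, *Cxcl12* with 91.1 and 49.8 CPM (-0.87, -0.92 to -0.82) and *Cxcl14* with 517 and 298 CPM (-0.79, -0.81 to -0.77). *Cxcl1* stood at 441 and 435 CPM, and its log2 ratio of -0.02 turned positive with scaling by the median ratio (0.09) or with no doublets removed (0.01). *Cxcl5* rested on few UMIs, 218 and 467 (2.69 and 4.37 CPM), and its log2 ratio of 0.70 (0.47 to 0.94) became 1.31 when no doublets were removed. Values over all cells mix cell number and level per cell, so the classes are described separately below.

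**Figure D1:**
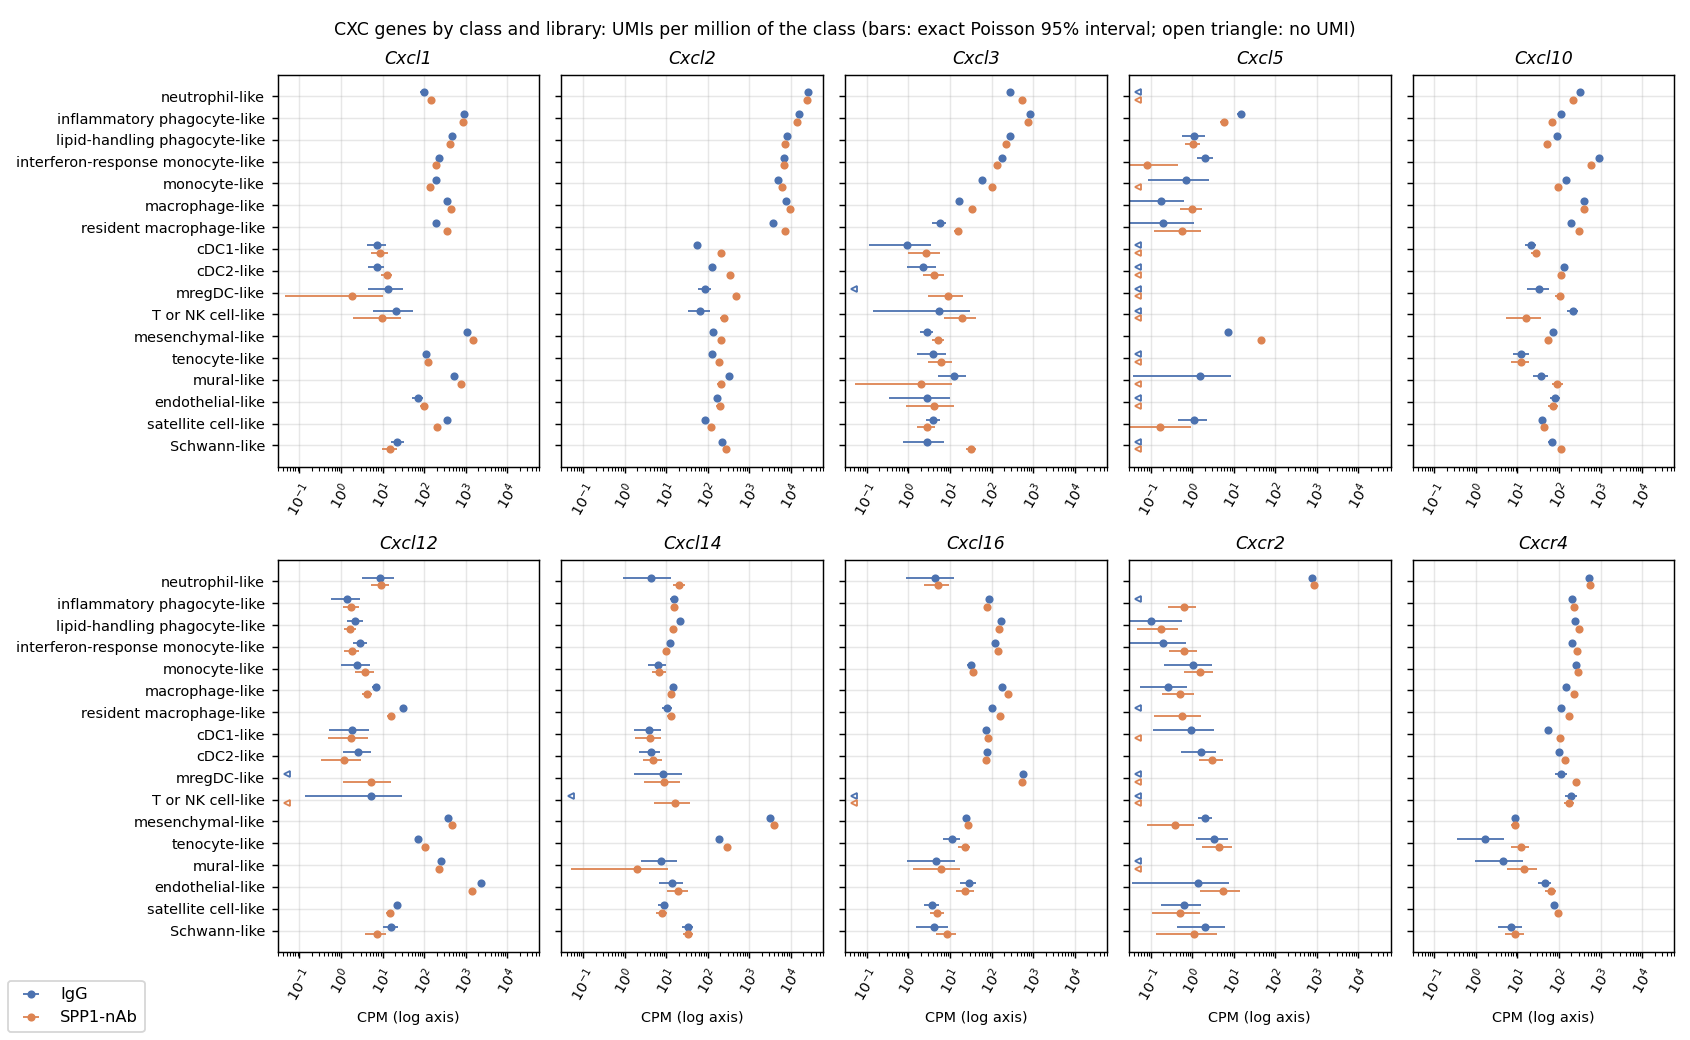
Level of each of the 10 genes in the 17 named classes, in CPM on a log axis, with IgG in blue and SPP1-nAb in orange, bars for the exact Poisson 95% interval and open triangles for classes with no UMI. Cxcl2 was highest in neutrophil-like cells (25140 and 24933 CPM), Cxcl12 in endothelial-like cells and Cxcl14 in mesenchymal-like cells, and Cxcr2 was low outside neutrophil-like cells.

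Most UMIs of the CXCR2 ligands lay in mononuclear phagocytes, and most were *Cxcl2*. *Cxcl1*, *Cxcl2*, *Cxcl3* and *Cxcl5* together reached 5525 (5509–5542) and 7242 (7226–7258) CPM, a log2 ratio of 0.39 (0.38 to 0.40). *Cxcl2* alone made up 89.8% and 91.4% of these UMIs. The 6 phagocyte classes, which comprised 50.1% and 58.8% of kept cells, held 83.7% and 85.05% of them. Neutrophil-like cells, although few, held 3.92% and 5.86%, mesenchymal-like cells 3.62% and 1.74% and an unnamed cluster led by *Ear2* and *Retnla* 7.36% and 6.31%.

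Neutrophil-like cells had the highest *Cxcl2* level of all classes in CPM, and it differed little between the libraries. It reached 25140.4 (24767–25518) and 24933 (24701–25167) CPM, a log2 ratio of -0.01 (-0.04 to 0.01), and its interval was apart from that of inflammatory phagocyte-like cells, the next class, in both libraries. In CPM, macrophage-like and lipid-handling phagocyte-like cells followed, and their order was not the same in the libraries, with lipid-handling cells higher in the IgG and macrophage-like cells higher in the SPP1-nAb library. Per cell, however, the shallow neutrophil-like cells held less *Cxcl2* than inflammatory phagocyte-like cells. The former had 17305 and 44102 UMIs in 550 and 1227 cells. The latter had 79276 and 180169 UMIs in 991 and 2201 cells. *Cxcl3* was different. It had 189 UMIs in 44 IgG neutrophil-like cells and 952 UMIs in 164 SPP1-nAb cells, levels of 275 (237–317) and 538 (505–574) CPM and a log2 ratio of 0.97 (0.74 to 1.20). *Cxcl1* had 69 and 267 UMIs (100.2 and 151 CPM, log2 ratio 0.59, 0.20 to 0.99), of which 5 cells held 59.4% and 33.7%. No *Cxcl5* UMI was found in neutrophil-like cells, with upper interval limits of 5.36 and 2.09 CPM. Of the 6 member genes with at least 100 UMIs in this class, *Cxcl1* and *Cxcl3* were higher past 1.5-fold, as were 5.79% of the 3094 genes compared, and *Cxcl10* was lower (324 and 213 CPM, -0.60, -0.85 to -0.36), as were 4.33%. The median log2 ratio of the 6 genes was 0.08 and that of all genes compared 0.04.

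Among the phagocytes, the ligands were highest in the inflammatory phagocyte-like class, which was named from *Arg1*, *Il1a*, *Thbs1* and other genes and in which *Cxcl3* was itself a leading gene. Here *Cxcl2* stood at 15935 (15824–16046) and 13956 (13892–14021) CPM, a log2 ratio of -0.19 (-0.20 to -0.18). *Cxcl3*, with 825 and 759 CPM (-0.12, -0.17 to -0.07), was higher in this class than in any other, and the class held 42.1% and 49.8% of all *Cxcl3* UMIs. *Cxcl1* stood at 905 and 859 CPM (-0.08, -0.13 to -0.03). In this class all 3 ligands thus took a slightly smaller part of the UMIs in the SPP1-nAb library, while its deeper cells held 8875 and 9138 ligand UMIs per 100 cells. Lipid-handling phagocyte-like cells, named from *Gpnmb*, *Atp6v0d2*, *Spp1* itself and other genes, also had lower levels, with 8173 and 7404 CPM of *Cxcl2* (-0.14, -0.15 to -0.13) and 279 and 228 CPM of *Cxcl3* (-0.29, -0.36 to -0.22). Interferon-response monocyte-like cells had 6942 and 6738 CPM of *Cxcl2* (-0.04, -0.06 to -0.03).

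Macrophages went the other way. *Cxcl2* in macrophage-like cells stood at 7556 (7506–7607) and 9514 (9459–9569.8) CPM, a log2 ratio of 0.33 (0.32 to 0.35). In resident macrophage-like cells, named from *Lyve1*, *Folr2*, *Cd163* and other genes, it stood at 3709 (3657–3762) and 7157 (7085–7230.0) CPM, a log2 ratio of 0.95 (0.92 to 0.97). *Cxcl1* in the resident class was also higher, with 191 and 349.6 CPM (0.88, 0.76 to 0.99). *Cxcl3* was low in both classes, with 16.5 and 33.2 CPM in macrophage-like and 5.64 and 15.4 CPM in resident macrophage-like cells. Monocyte-like cells also had more *Cxcl2* (4991 and 6061 CPM) and *Cxcl3* (60.6 and 105 CPM) in the SPP1-nAb library, but less *Cxcl1* (189 and 138 CPM). For *Cxcl2*, the phagocyte classes therefore stood closer together in the SPP1-nAb library, with the highest classes lower and the lowest class higher. As a whole, phagocytes had 8476 (8449–8503) and 9457 (9434–9479) CPM of the 4 ligands, a log2 ratio of 0.16 (0.15 to 0.16) that came to 0.09 when no doublets were removed or when more than 500 genes were required per cell. The largest phagocyte cluster was macrophage-like cluster 0 in the IgG and lipid-handling cluster 1 in the SPP1-nAb library. None of the 9 member genes with at least 100 UMIs was higher past 1.5-fold in phagocytes, where 2.38% of 12119 genes were, and 3 of them (*Cxcl5*, *Cxcl10* and *Cxcl12*) were lower, where 8.57% were. Their median log2 ratio was 0.11, against -0.04 for all genes compared. Of the 3 lower genes, *Cxcl5* stood at no more than 15.1 CPM and *Cxcl12* at no more than 31.1 CPM in any phagocyte class. Over the 17 classes, the interval of the summed ligands lay above 0 in 12, below 0 in 4 and held 0 in 1, and no such count was made for other genes. The 12 include T or NK cell-like cells (17 and 88 ligand UMIs), which should lack these ligands, and tenocyte-like and Schwann-like cells. Estimated free RNA was higher in the SPP1-nAb library in all 3, with 0.668% and 2.24%, 2.36% and 5.55%, and 3.79% and 5.16% of UMIs, and its part in these low levels was not tested. The first pair rests on collagen genes, and thus on the mesenchymal-like share, and on 48 and 73 cells. Few cells also carried much of the *Cxcl2* of such classes. In T or NK cell-like cells 5 cells held 50% and 74.7% of its UMIs, and in Schwann-like cells 62.2% and 52.3%. In tenocyte-like cells 5 cells held 46.1% and 45.3%. In cDC1-like and mregDC-like cells, also among the 12, they held 27.4% and 69.6%, and 58.1% and 89.3%.

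**Figure D2:**
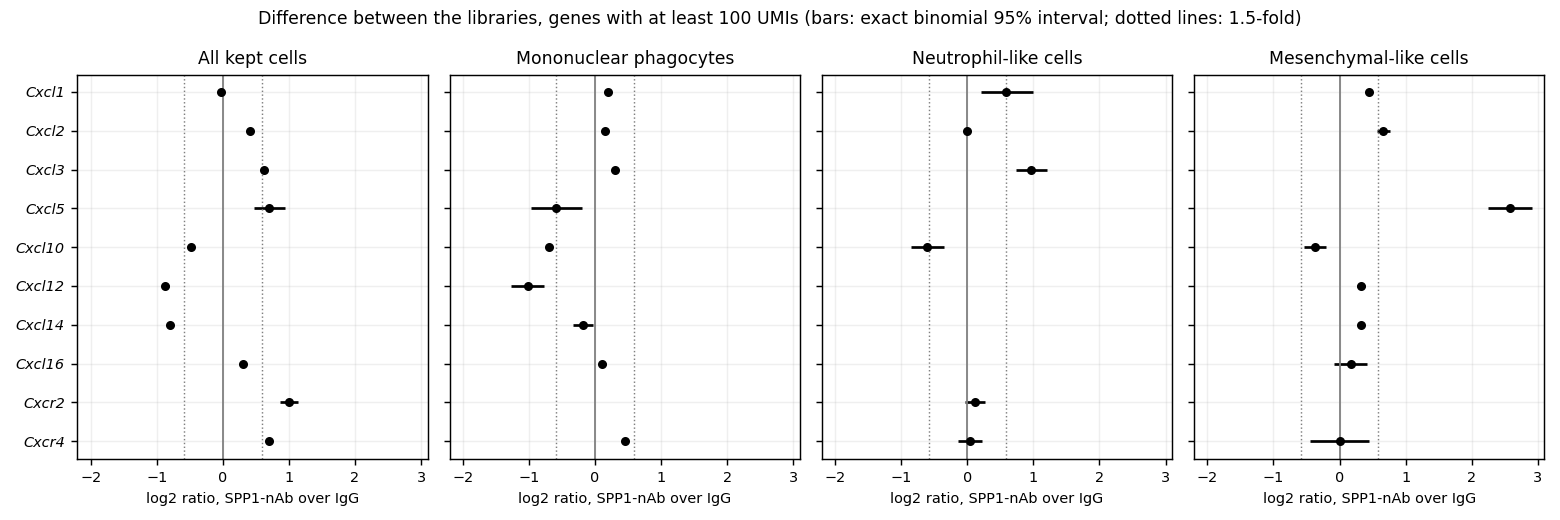
Log2 ratio (SPP1-nAb over IgG) of each gene with at least 100 UMIs in all kept cells, mononuclear phagocytes, neutrophil-like cells and mesenchymal-like cells, with bars for the exact binomial 95% interval and dotted lines at 1.5-fold. Cxcl12 and Cxcl14 lay left of 0 over all cells (-0.87 and -0.79) and right of 0 in mesenchymal-like cells (0.32 and 0.33), and Cxcl1 over all cells lay at -0.02, which turned positive with scaling by the median ratio (0.09) or no doublet removal (0.01).

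*Cxcl1* made up most ligand UMIs in some stromal classes but not in all. In mesenchymal-like cells, named from *Pdgfra*, *Dcn*, *Lum* and other genes, *Cxcl1* made up 88.4% and 85.1% of the ligand UMIs. *Cxcl1* was higher in this class than in any other, with 1098 (1081–1117) and 1491 (1464–1519) CPM and a log2 ratio of 0.44 (0.41 to 0.48). The class held 40.1% and 24.7% of the *Cxcl1* UMIs and 11.7% and 4.38% of the kept cells. Its clusters did not share 1 direction. Cluster 6, which held most of the class in both libraries, had 884 and 1297 CPM of *Cxcl1*, and cluster 19, led by *Krtdap* and *Pi16*, had 1239.9 and 3269 CPM. Cluster 22, led by *Tenm2* and *A2m*, went the other way with 2945 and 833 CPM. Clusters 19, 22 and 25 were mostly of the IgG library (80.5%, 78.9% and 93.98% of their cells). In mural-like cells, the muscle cells and pericytes of vessel walls, *Cxcl1* was also the main ligand (59.96% and 78.6% of ligand UMIs), with 515 and 777 CPM (0.59, 0.38 to 0.81). Tenocyte-like and endothelial-like cells, by contrast, had more *Cxcl2*. It made up 53.1% and 58.3% of the ligand UMIs of the former and 69.6% and 64.5% of those of the latter. Its levels were low, 129 and 185 CPM in the former and 167 and 192 CPM in the latter. Estimated free RNA made up 2.36% and 5.55% of the UMIs of tenocyte-like cells and 4.52% and 5.76% of those of endothelial-like cells. The part of free RNA in these levels was not tested, and no main ligand is read from them. Satellite cell-like cells, the stem cells of muscle, had *Cxcl1* at 349 and 201 CPM (-0.80, -0.90 to -0.69).

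*Cxcl5* had the fewest UMIs of the 10 genes, and they belonged to few cells. In mesenchymal-like cells it had 98 UMIs in 37 IgG cells and 345 UMIs in 60 SPP1-nAb cells, levels of 7.50 (6.09–9.14) and 44.8 (40.2–49.8) CPM and a log2 ratio of 2.58 (2.25 to 2.92). The 5 cells with the most UMIs held 51.02% and 42.6% of them. Inflammatory phagocyte-like cells had 75 and 77 UMIs in 8 and 10 cells (15.1 and 5.96 CPM, -1.34, -1.82 to -0.86), and 5 cells held 93.3% and 93.5% of them, so a handful of cells carried either value. In mesenchymal-like cells, *Cxcl2* (134 and 211 CPM, 0.66, 0.56 to 0.76) and *Cxcl5* were the 2 of 8 member genes higher past 1.5-fold, where 5.56% of 10403 genes were higher, and no member was lower, where 6.98% were. The median log2 ratio of the 8 genes was 0.32, against -0.02 for all genes compared. Free RNA, estimated from myeloid genes, made up 1.43% and 2.54% of the UMIs of mesenchymal-like cells. Most *Cxcl2* lay in phagocytes, and the part of free RNA in its low level here was not tested.

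Neutrophil-like cells made up 550 of the IgG cells, or 2.61% (2.40–2.84), and 1227 of the SPP1-nAb cells, or 5.51% (5.21–5.81). The difference was 2.89 percentage points (2.52–3.27) and the ratio of shares 2.11. Set beside this, the 4 ligands outside neutrophil-like cells reached 5354 (5338–5370.4) and 6932 (6916–6948) CPM, a log2 ratio of 0.37 (0.37 to 0.38). Per cell, this was 2101 and 3458 ligand UMIs per 100 other cells, a ratio of 1.65 that also contains the greater depth of the SPP1-nAb library. For each neutrophil-like cell there were 783 and 593 ligand UMIs in other cells. The library with more ligand thus also had more neutrophil-like cells, and with 2 libraries no relation between these measures can be tested. Each share describes the sorted and loaded cells and not the muscle, and neutrophil-like cells were shallow (medians of 1234 and 1381 UMIs).

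**Figure D3:**
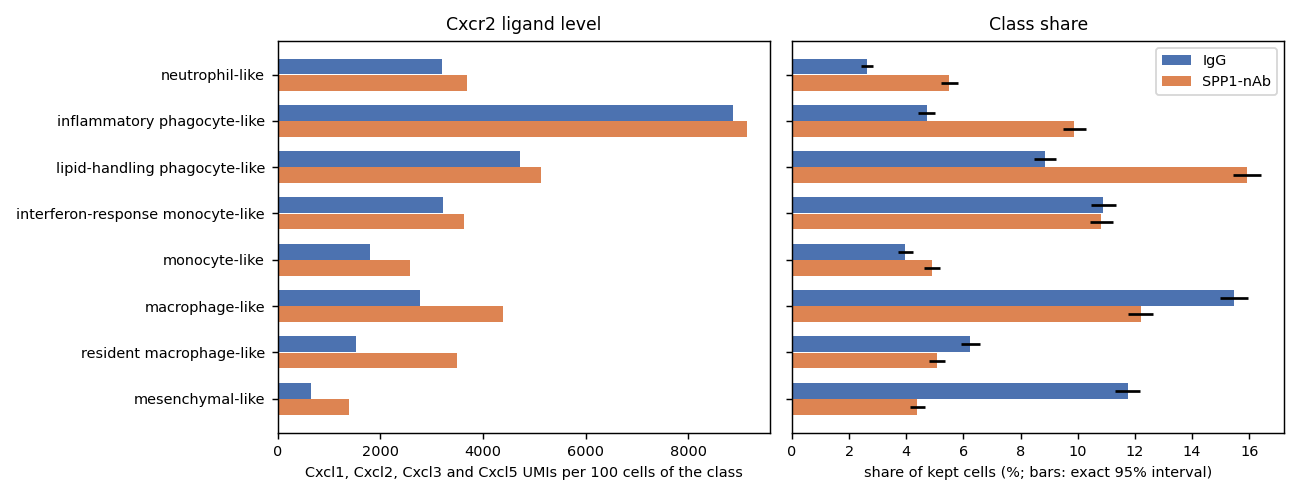
UMIs of Cxcl1, Cxcl2, Cxcl3 and Cxcl5 per 100 cells of the class (left) and the share of kept cells in the class in percent with exact 95% intervals (right), for 8 classes of the IgG (blue) and SPP1-nAb (orange) libraries. Inflammatory phagocyte-like cells had the most ligand per cell (8875 and 9138 UMIs per 100 cells) and made up 4.71% and 9.88% of cells, while macrophage-like cells had 2774 and 4395 UMIs per 100 cells and shares of 15.5% and 12.2%.

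The difference in ligand was then split into a part from the shares of classes and a part from levels within classes. Per 100 kept cells, ligand UMIs went from 2129 to 3471, a difference of 1341, of which 774 (57.7%) belonged to the shares and 568 (42.3%) to the levels. The largest parts by share came from inflammatory phagocyte-like cells (466 UMIs), with 4.71% and 9.88% of kept cells, and from lipid-handling phagocyte-like cells (349 UMIs), with 8.85% and 15.9%. Neutrophil-like cells themselves added 99.6 UMIs by their share and 20.3 by their level. The largest parts by level came from macrophage-like (224 UMIs) and resident macrophage-like cells (112 UMIs), whose smaller shares gave -117 and -29.5 UMIs. Levels per cell follow depth. A split on CPM, which uses each class's share of the library's UMIs instead of its share of cells, gave 92.6% to shares. Shares of UMIs contain the depth of the class as well as its number of cells.

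**Figure D4:**
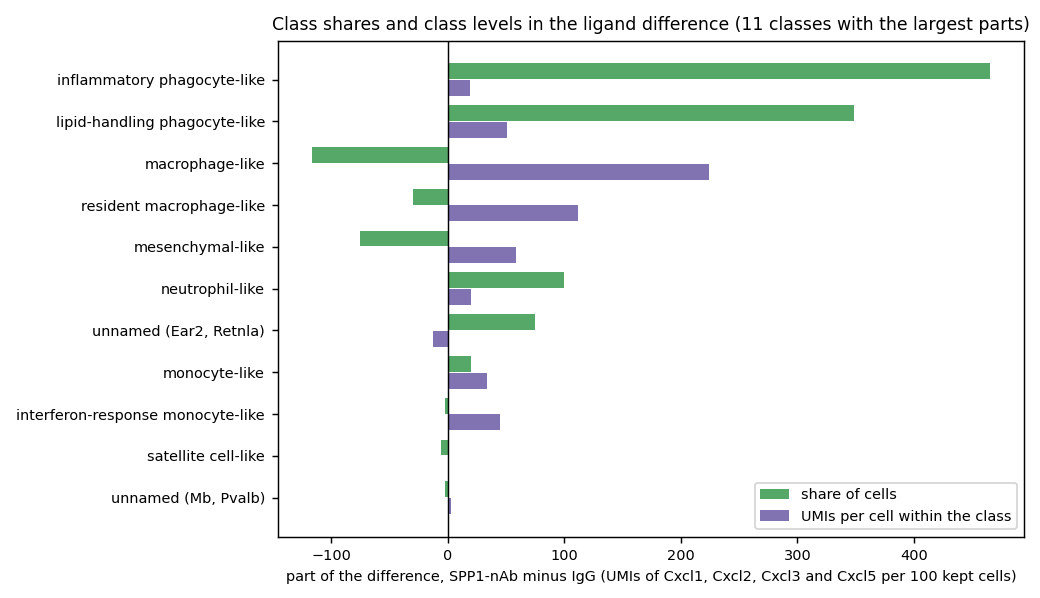
Parts of the difference in Cxcr2 ligand UMIs per 100 kept cells (SPP1-nAb minus IgG) that belong to class shares and to UMIs per cell within the class, for the 11 classes with the largest parts. The share parts of inflammatory and lipid-handling phagocyte-like cells (466 and 349) exceeded the sum for neutrophil-like cells (120.0).

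*Cxcr2* was largely restricted to the neutrophil-like cluster, of which it was a leading gene. The cluster held 89.9% and 94.8% of the UMIs of this receptor, and its level was 776 (711–844) and 841 (798–885) CPM, a log2 ratio of 0.12 (-0.03 to 0.26). The higher *Cxcr2* over all cells was thus accompanied by a larger share of neutrophil-like cells, and the interval of the level within them held 0. Outside the cluster there were 60 and 81 UMIs, or 0.746 and 0.771 CPM. After each cell was thinned to 1000 UMIs, 44.9% (40.2–49.7) and 48.6% (45.6–51.6) of 443 and 1101 neutrophil-like cells had a *Cxcr2* UMI, with 107 and 126 shallower cells left out. At 500 UMIs each they were 29.6% and 30.6%, at 2000 UMIs 8 and 87 cells were deep enough, and without thinning the shares were 49.1% and 56.4%. Mesenchymal-like cells, which should lack the receptor, had thinned shares of 0.167% and 0.106%, at medians of 4890.5 and 8020 UMIs before thinning.

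*Cxcr4*, which aged neutrophils regain and which many myeloid cells carry, was spread more widely. Its level in CPM was highest in neutrophil-like cells, at 532 (479–589) and 547 (513–582) CPM, a log2 ratio of 0.04 (-0.13 to 0.22). Without thinning, 41.6% and 43.2% of these shallow cells had a UMI, against 58.5% and 68.8% of lipid-handling phagocyte-like cells. At 500 UMIs each the order was the other way, with 20.2% and 20.9% against 11.2% and 14.7%. Phagocytes held 76.4% and 76.6% of the *Cxcr4* UMIs, at 192 (188–196) and 263 (259.5–267) CPM, a log2 ratio of 0.45 (0.42 to 0.49). The interval lay above 0 in 10 of the 12 classes with at least 100 UMIs and below 0 in none of them, a count that was not made for genes outside the 10. Next in CPM were lipid-handling phagocyte-like and monocyte-like cells, whose intervals overlapped in both libraries. The log2 ratio was 0.66 in macrophage-like, 0.71 in resident macrophage-like and 0.96 in cDC1-like cells. It was 0.20 in monocyte-like, 0.22 in inflammatory, 0.30 in lipid-handling and 0.39 in interferon-response cells, and these 4 classes had levels between 203 and 303 CPM. At 1000 UMIs each, 16.1% (15.4–16.8) and 21.7% (21.03–22.5) of phagocytes had a UMI, against 0.752% and 1.06% of mesenchymal-like cells. The unthinned shares of phagocytes were 42.5% and 57.8%, at medians of 3949 and 5030 UMIs. Among neutrophil-like cells with a *Cxcr2* UMI, 36.2% and 36.3% also had *Cxcr4*, against 34.8% and 32.5% of those without, and the intervals overlapped.

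The ligand of CXCR4, *Cxcl12*, was a stromal and vascular transcript. Endothelial-like cells had the highest level, 2300.4 (2190.4–2415) and 1418 (1332–1508) CPM, a log2 ratio of -0.70 (-0.81 to -0.58). Mesenchymal-like cells held most of the UMIs (66.9% and 68.2%) and went the other way, with 378 (367–388) and 472 (457–487) CPM and a log2 ratio of 0.32 (0.26 to 0.38), which came to 0.12 without the 3 clusters that were mostly of the IgG library. Mural-like cells had 251 and 233 CPM (-0.10, -0.46 to 0.25). Over all cells *Cxcl12* was lower in the SPP1-nAb library, in which the shares of mesenchymal-like (11.7% and 4.38%) and endothelial-like cells (2.13% and 1.63%) were smaller. At 1000 UMIs each, 76.5% (71.1–81.4) and 59.4% (52.98–65.6) of 277 and 244 endothelial-like cells had a UMI. Neutrophil-like cells, which should lack it, gave 0.903% and 0.817%. The endothelial-like cells were shallow (medians of 1179 and 1304), 172 and 119 of them were left out by thinning, and without thinning the shares were 78.8% and 73.6%. Free RNA of myeloid genes made up 4.52% and 5.76% of their UMIs.

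*Cxcl14* was a gene of mesenchymal-like cells, which held 97.1% and 94.6% of its UMIs, and it was a leading gene of their cluster 6. Its level in the class was 3114 (3084–3145) and 3912 (3868–3956) CPM, a log2 ratio of 0.33 (0.31 to 0.35). Cluster 25 had the highest level, 8289 (8115–8466) and 12199.7 (11535–12892) CPM, of which the SPP1-nAb value rests on 13 cells (203 in the IgG library), and cluster 6 had 3715 and 4525 CPM. Cluster 19 had 132 and 333 CPM, so the clusters of the class differed widely. Without the 3 clusters that were mostly of the IgG library, the log2 ratio was 0.27. Tenocyte-like cells came next among the classes, with 182 and 286 CPM (0.65, 0.45 to 0.86). At 1000 UMIs each, 45.8% (43.8–47.8) and 57.1% (53.9–60.3) of mesenchymal-like cells had a UMI, against 0.451% and 1.73% of neutrophil-like cells. Without thinning the shares of mesenchymal-like cells were 57.1% and 75.8%. In mesenchymal-like cells with *Cxcl12* at this depth, *Cxcl14* was found in 57.2% and 65.9%, and in those without *Cxcl12* in 42.1% and 53.6%.

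*Cxcl10* followed the interferon-response class. Interferon-response monocyte-like cells, named from *Ifit1*, *Ifit2*, *Rsad2*, *Isg15* and other genes, had 933 (914–952) and 588 (575–602) CPM, a log2 ratio of -0.67 (-0.71 to -0.62). Lipid-handling (90.01 and 51.8 CPM, -0.80), inflammatory (109 and 67.6 CPM, -0.69) and monocyte-like cells (149 and 93.9 CPM, -0.67) were also lower. Macrophage-like cells had 405 and 409 CPM (0.01, -0.04 to 0.07), and resident macrophage-like cells had more in the SPP1-nAb library, with 200.1 and 310.1 CPM (0.63, 0.52 to 0.75). Of the 13 classes with at least 100 UMIs, the interval lay below 0 in 7, above 0 in 2 and held 0 in 4. In phagocytes as a whole the level was 381 (375–386) and 234 (229.9–237) CPM, a log2 ratio of -0.70 (-0.74 to -0.67). This ratio also contains the mix of classes. Macrophage-like cells made up 30.8% and 20.8% of phagocytes, and lipid-handling cells, with little *Cxcl10*, 17.7% and 27.1%. The part of the mix in this ratio was not tested. At 1000 UMIs each, 27.3% (25.5–29.2) and 21.6% (19.99–23.3) of interferon-response monocyte-like cells had a UMI, against 4 of 45 and 1 of 69 T or NK cell-like cells. Without thinning the shares were 41.7% and 36.97%. The UMIs were concentrated, since 228 and 241 of 2279 and 2405 such cells held 71.4% and 76.6% of the thinned UMIs.

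*Cxcl16* was a gene of mature dendritic cells and macrophages. mregDC-like cells, named from *Ccr7*, *Fscn1* and other genes, had the highest level, 574 (499–657) and 537 (478–601) CPM, a log2 ratio of -0.10 (-0.36 to 0.16) from 84 and 102 cells. Among phagocytes, the lipid-handling cluster led by *Acp5* had 398 and 371 CPM (-0.10, -0.21 to 0.01), whereas the cluster of the same class led by *Atp6v0d2* and *Spp1* had 94.7 and 80.03 CPM (-0.24, -0.37 to -0.11). Macrophage-like cells had 182 (174–189.7) and 245 (236–254) CPM, a log2 ratio of 0.43 (0.35 to 0.51), and resident macrophage-like cells 100.2 and 164 CPM (0.71, 0.55 to 0.87). In phagocytes as a whole, which held 80.2% and 83.9% of the UMIs, the level was 134 and 145 CPM, a log2 ratio of 0.11 (0.06 to 0.16). Its receptor *Cxcr6* had 19 and 47 UMIs, of which T or NK cell-like cells held 11 and 30.

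**Figure D5:**
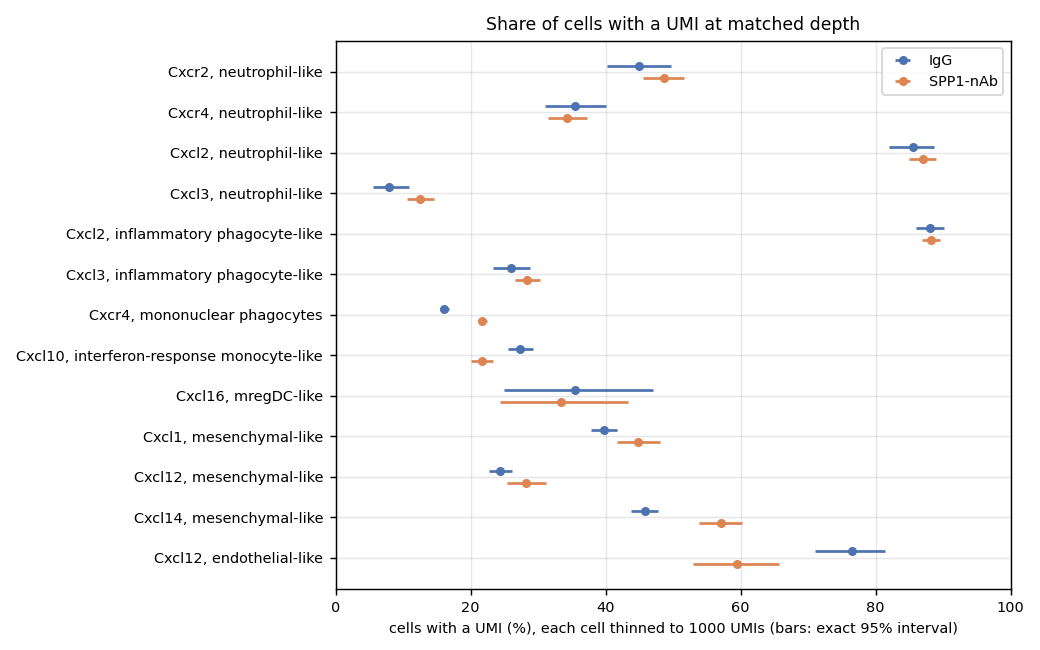
Share of cells with a UMI of the gene, in percent with exact 95% intervals, after every cell was thinned to 1000 UMIs, in IgG (blue) and SPP1-nAb (orange) cells of the class named on the axis. Cxcl2 was found in 85.6% and 87.1% of neutrophil-like cells, Cxcl14 in more SPP1-nAb than IgG mesenchymal-like cells (45.8% and 57.1%) and Cxcl12 in fewer SPP1-nAb than IgG endothelial-like cells (76.5% and 59.4%).

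At this equal depth, *Cxcl2* was found in 88.1% (85.9–90.1) and 88.3% (86.9–89.6) of inflammatory phagocyte-like cells, 68.4% and 75.1% of macrophage-like cells and 55.95% and 68.6% of resident macrophage-like cells. T or NK cell-like cells, which should lack it, gave 6.67% and 8.70% of 45 and 69 cells, at medians of 3246 and 3630 UMIs against 4927 and 5763 in the inflammatory class. Without thinning the shares were 92.7% and 94.1% in the inflammatory class and 22.9% and 30.1% in T or NK cell-like cells. *Cxcl3* was found in 25.99% (23.3–28.8) and 28.4% (26.5–30.3) of inflammatory phagocyte-like cells and 7.90% (5.56–10.8) and 12.4% (10.6–14.5) of neutrophil-like cells. In T or NK cell-like cells it was found in 0 of 45 IgG cells, which by the limit of 3 counts allows a share of up to 6.67%, and in 1 of 69 SPP1-nAb cells. Unthinned, its shares were 2.08% and 2.74% in those cells, 38.7% and 45.1% in the inflammatory class and 8% and 13.4% in neutrophil-like cells, and because the thinned shares of the inflammatory class ran against the CPM, no order is read from them.

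In the inflammatory class, *Cxcl1* was found in a larger share of the cells with *Cxcl3* than of those without it. At 1000 UMIs each, *Cxcl1* was found in 31.6% and 33.1% of the inflammatory phagocyte-like cells with *Cxcl3* and in 16.9% and 16.6% of those without. More than 1 of the 4 ligands was found in 38.1% (35.03–41.2) and 39.5% (37.4–41.5) of inflammatory phagocyte-like cells and in 9.93% (7.31–13.1) and 16.3% (14.1–18.6) of neutrophil-like cells. These shares were not set against those that the ligands would give independently. *Cxcl2* alone was in 88.1% and 88.3% of inflammatory phagocyte-like cells, so they do not show that ligands occur together. The cells with the most UMIs, 1 in 10 of each class, held 33.5% and 33.9% of the thinned *Cxcl2* UMIs of the inflammatory class and 43.7% and 44.9% of those of neutrophil-like cells. For *Cxcl3* in the inflammatory class these cells held 72.1% and 67.98%, but it had 796 and 1699 thinned UMIs against 15121 and 29905 of *Cxcl2*, so these shares cannot be set against each other.

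Genes with the most similar pattern were looked up by the Pearson correlation of log2(CPM + 10) over 32 profiles, 16 classes in each of the 2 libraries, among 15118 genes. These values are descriptions, since all profiles come from the same 2 libraries. *Cxcl2* was most like *C5ar1* (r = 0.971), the receptor of the complement fragment C5a, and *Cxcl3* most like *Il1a* (0.914), which was among the markers used to name the inflammatory class. *Cxcl10* was most like *Oas2* (0.865), an interferon-induced antiviral gene, and *Cxcl14* most like *Il33* (0.977), a cytokine of fibroblasts. *Cxcl12* was most like *Tmtc1* (0.971), *Cxcl16* most like *Kcnk6* (0.936) with *Cd40* next (0.910), and *Cxcr4* most like *Tgif1* (0.925). *Cxcr2* was most like *4732465J04Rik* (0.997), with *Mirt2* (0.996) and *Ceacam10* (0.995) next, all of them genes with few UMIs. *Cxcl1*, shared between stromal cells and phagocytes, had its nearest match in *Man2a1* (0.822), and *Cxcl5* in *Gm49257* (0.838).

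Of 18 further genes of the system, 17 were among the features and 13 had at least 100 UMIs over all kept cells. Higher past 1.5-fold in the SPP1-nAb library were 2 of these 13, against 2.73% of all genes, *Cxcl9*, another interferon-induced ligand of CXCR3 (15.8 and 34.5 CPM, log2 ratio 1.13, 1.04 to 1.22), and *Csf3*, which encodes the growth factor G-CSF that drives neutrophil production (183 and 593 UMIs, 2.26 and 5.55 CPM, log2 ratio 1.30, 1.06 to 1.55). Phagocytes held 157 and 524 of the *Csf3* UMIs, and the inflammatory class had the highest level, 15.7 and 22.00 CPM (0.49, 0.12 to 0.87). In endothelial-like cells, its highest class in the IgG library, *Cxcl9* was lower in the SPP1-nAb library (188 and 142 CPM, -0.41, -0.79 to -0.02), and interferon-response monocyte-like cells had 24.7 and 143 CPM (2.53, 2.34 to 2.73). *Cxcl9* and *Cxcl10*, although both are induced by interferon, went in opposite directions over all cells, *Cxcl10* with 248 and 177 CPM (-0.48, -0.51 to -0.46). Lower past 1.5-fold were 4 genes, against 17.4% of all genes. They were *Cxcl13*, the ligand of the B cell receptor CXCR5 (49.7 and 11.8 CPM, -2.08), *Ackr3*, a scavenger of CXCL12 (55.8 and 16.3 CPM, -1.78), *Ackr1*, an endothelial scavenger of inflammatory chemokines (3.55 and 1.73 CPM, -1.04), and *Dpp4*, a protease that trims CXCL12 and CXCL10 (33.8 and 15.3 CPM, -1.15). *Cxcl13* and *Ackr3* were highest in mesenchymal-like cells, and within them the log2 ratios were -1.21 and -0.70. These ratios also contain the mix of mesenchymal-like clusters, some of which were mostly of the IgG library, and the part of that mix was not tested. *Ackr1* was highest in endothelial-like cells and went the other way there (71.6 and 117 CPM, 0.71, 0.19 to 1.24). *Ppbp*, which encodes a further ligand of CXCR2 best known from platelets, had 16.6 and 21.5 CPM (0.37) and was highest in the inflammatory class. *Adam10* and *Adam17*, whose proteases release CXCL16 from the membrane, both had log2 ratios of 0.14. *Csf3r*, the receptor of G-CSF, had 40.4 and 57.7 CPM (0.51) over all cells and 1077 and 972 CPM in neutrophil-like cells, and *Cxcr1* had 11 and 23 UMIs.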

How the data were processed

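Droplet-based scRNA-Seq of 2 libraries (IgG and SPP1-nAb) was analysed. The authors deposited raw UMI counts per gene and barcode, made with CellRanger (9.0.1 in the file headers, 8.0.0 in the submitters' processing notes, which name GRCm39, whereas the methods name a GRCm38 transcriptome). Gene coordinates were taken from GENCODE on GRCm39 by gene ID (31674 of 32287 IDs matched). Of 23779 and 25069 barcodes, those with more than 200 genes and under 10% mitochondrial UMIs were passed on, and in each library the 10% with the highest score against simulated doublets were removed. Counts were scaled to 10000 per cell, and 2000 variable genes, without the 10 genes described and *Spp1*, gave 30 principal components, which were integrated (Harmony method) and clustered (20 neighbors, Leiden resolution 1). A cluster was named where at least 3 markers of a class were raised past 1.5-fold, each in at least 20% of its cells, and either 1 marker was among its 25 leading genes or 5 were raised. In clusters with a depth under 1/3 of the library median, such as the neutrophil-like and endothelial-like ones, a marker had to be among the 10 leading genes. Clusters led by muscle fibre genes stayed unnamed. Other clusters without a name were called macrophage-like where 5 macrophage markers were raised over the classes that are not phagocytes and the cluster was not shallow. A cluster stayed unnamed where more markers of another class than of its own were among its top 10 genes, as in the *Ear2* cluster. These thresholds were chosen with the clusters already known. UMIs were summed per class and library and scaled to CPM with exact Poisson intervals. Ratios have exact binomial intervals and shares Clopper-Pearson intervals. With 1 library per condition no p-value was computed. Cells were thinned to 1000 UMIs to compare shares of cells. Genes and lists were chosen with earlier results of these data known. The named genes were the 10 members, 18 further genes of the system and the 3 genes most like each member. Scripts were tested on simulated data. Python 3.11.15, numpy 2.4.6, scipy 1.17.1, pandas 2.3.3, scikit-learn 1.9.0, igraph 0.11.9, leidenalg 0.10.2 and matplotlib 3.10.9 were used.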

Additional observations from a re-analysis of the deposited data

How the results depend on the processing

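The larger neutrophil-like share of the SPP1-nAb library kept its direction under every alternative run, with differences of 2.61 to 3.26 percentage points. For the main results, log2 ratios are given below for each setting that moved them past their counting interval. Among single genes over all kept cells and single shares of cells, 25 further values moved and 2 changed sign. Not all of these are given. For the summed CXCR2 ligands over all kept cells and outside neutrophil-like cells they were 0.37 and 0.35 with more than 500 genes per cell, 0.37 and 0.35 with mitochondrial UMIs under 5%, 0.35 and 0.33 with no doublets removed, 0.46 and 0.44 with the top 20% of doublet scores removed, and 0.50 and 0.48 with scaling by the median ratio. For these ligands in phagocytes they were 0.095, 0.15, 0.094, 0.19 and 0.20 under the same 5 settings, 0.13 with no integration, 0.13 at resolution 0.5, 0.16 at resolution 2, 0.14 with the 10 genes eligible as variable genes, 0.14 with each cell gated on its own markers and 0.12 with the cluster led by *Ear2* counted in. For *Cxcl12* in mesenchymal-like cells the ratio was 0.45 with the top 20% of doublet scores removed, 0.24 with each cell gated and 0.12 without the clusters mostly of 1 library. For *Cxcl14* in these cells it was 0.24 with more than 500 genes, 0.30 with no doublets removed, 0.48 with the top 20% removed, 0.30 with no integration, 0.22 with each cell gated, 0.35 with scaling by the median ratio and 0.27 without the clusters mostly of 1 library. For *Cxcl10* in phagocytes it was -0.74 with mitochondrial UMIs under 5%, -0.74 at resolution 0.5, -0.66 at resolution 2, -0.66 with scaling by the median ratio and -0.75 with the *Ear2* cluster. The share of the ligand difference that belonged to class shares was 58.4% with each cluster its own class and 60.5% with shares changed first. It was 92.6% on CPM, where class shares are shares of UMIs. Genes past 1.5-fold over all kept cells numbered 3050, or 4799 with a minimum of 20 UMIs, and 1057 passed a fold of 2. *Cxcl1* over all kept cells was -0.02 as reported, 0.0071 where doublets were left in and 0.085 where the median ratio set the scale. The cause of these shifts was not tested. The settings on CPM, with the *Ear2* cluster, without barcodes found in both libraries (which moved nothing past its interval) and without clusters mostly of 1 library were chosen after seeing the data. No paired analysis was possible because each condition had 1 library, and for the same reason no library could be left out. Depth limits *Cxcl5*, *Cxcl3* and *Cxcl1* in neutrophil-like cells and *Cxcr2* outside them, where UMIs were few.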
